A study of Mus musculus with 4 samples.

Results

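Transcription factor genes that set position along the gut were followed on 4 expression arrays: the GATA factors Gata2, Gata3, Gata4, Gata5 and Gata6, the caudal-type homeobox genes Cdx1 and Cdx2, and the nuclear receptors Hnf4a and Hnf4g. They were chosen by gene symbol in the platform annotation, among probe sets listed with 1 symbol, and made up 9 of 19938 genes. Each of the 9 had a single probe set, and all 9 were among the 12526 genes that reached a log2 intensity of 6 on at least 1 array, the floor used here for dim genes. The RNA came from epithelial cells that EDTA released from the colons of sex-matched C57BL/6 mice aged 6 to 8 weeks, collected on day 12 of a model of inflammation-driven colon cancer. All 4 groups, wild type included, received azoxymethane, a colon carcinogen (10 mg/kg), and then dextran sulfate sodium, which injures the colonic lining (3.5% in drinking water for 5 days). The groups were mice labelled as lacking both Bmi1 and Mel18 in intestinal epithelium (Bmi1ΔIEC Mel18ΔIEC, here DKO), mice lacking Bmi1 (Bmi1ΔIEC, Bmi1_KO), mice lacking Mel18 (Mel18ΔIEC, Mel18_KO) and wild type (WT), with 1 array each. Bmi1 and Mel18 (gene symbol Pcgf2) encode related subunits of Polycomb repressive complex 1, which keeps many developmental genes silent. The sources used here do not give the Cre driver, the deleted exons or the number of animals behind an array.

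GATA factors bind DNA through zinc fingers and divide the gut and its neighbours between them. In mouse intestine Gata4 marks the epithelium of the duodenum and jejunum and is switched off towards the ileum and colon, where Gata6 remains, and loss of Gata4 in the jejunum lets ileal genes such as the bile acid transporter Slc10a2 appear there. Gata5 is a further gut and heart member, while Gata2 and Gata3 are best known from blood cells, Gata2 in blood progenitors and mast cells and Gata3 in T cells and innate lymphoid cells. Cdx1 and Cdx2 hold the intestinal fate of the epithelium against a gastric one, and Hnf4a and its paralog Hnf4g drive enterocyte genes for lipid handling and the brush border.

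Because each genotype had 1 array, differences between 2 arrays carry neither a replicate check nor a p-value. A scale of error was taken from the spread across genes (scaled median absolute deviation) of 3 independent contrasts: either loss averaged over the other gene, and the interaction. The smallest of them put an upper bound of 0.407 (log2) on the usual size of the error of a 2-array difference in a typical gene. It compares to 1 standard deviation, so error alone can exceed it in single genes. Differences below it are called within the error scale, and those outside it are not thereby shown to be real. The difference between Bmi1_KO and WT, the most similar arrays by this measure, gave a smaller spread across genes, 0.191. By that narrower measure the spans or gaps of Gata3 (0.35), Cdx2 (0.36), Gata4 (0.29), Gata6 (0.21) and Hnf4g (0.38) given below would exceed the scale, so "within the error scale" depends on this choice. In linear terms, probe set intensities ran from 4.70 to 13738. The array labelled DKO stood apart, with correlations across genes of 0.878 to 0.906 with the other arrays, whereas the others correlated with each other at 0.978 to 0.982. The epithelial adhesion gene Epcam read 12.38 in DKO, 12.05 in Bmi1_KO, 11.99 in Mel18_KO and 12.14 in WT, so epithelium was present on all 4 arrays, and the leukocyte gene Ptprc read 9.96, 7.94, 7.23 and 7.61 in the same order of arrays. The deleted genes do not check the labels. Bmi1 read 7.64 in DKO, 7.43 in Bmi1_KO, 6.999 in Mel18_KO and 7.25 in WT, and Pcgf2 read 6.81, 6.72, 6.84 and 6.96 on those arrays. Whether the probe sets lie in the deleted exons is not known here. Every direction below therefore rests on the libraries as labelled.

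In all, 3 of the 9 factors were at least 2-fold apart between the DKO and WT arrays. Gata4 and Gata3 were higher and Cdx1 was lower, against 7.33% of all genes that were at least 2-fold higher and 8.19% that were lower by that much. After cyclic loess the larger side was the higher one, with 1020 genes higher and 794 lower, against 918 and 1026 as deposited. Gata5 lay 1.86-fold higher, just under the threshold, and the other 5 factors (Gata2, Gata6, Cdx2, Hnf4a and Hnf4g) lay between -0.42 and 0.01 on the log2 scale. Against the mean of the single deletions, a comparison without the WT array, the counts were again 2 higher and 1 lower, where 7.33% and 6.51% of genes passed. The same 3 factors were 2-fold beyond every other array on DKO, as were 5.02% of genes on the high side and 4.72% on the low side. In this unsorted bulk RNA, fewer or more cells of a type and less or more RNA per cell cannot be told apart. The set was chosen with earlier results of these data known, so neither count is independent evidence about the family. The DKO array enters both comparisons, which are given side by side for that reason and are not a check of each other.

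**Figure D1:**
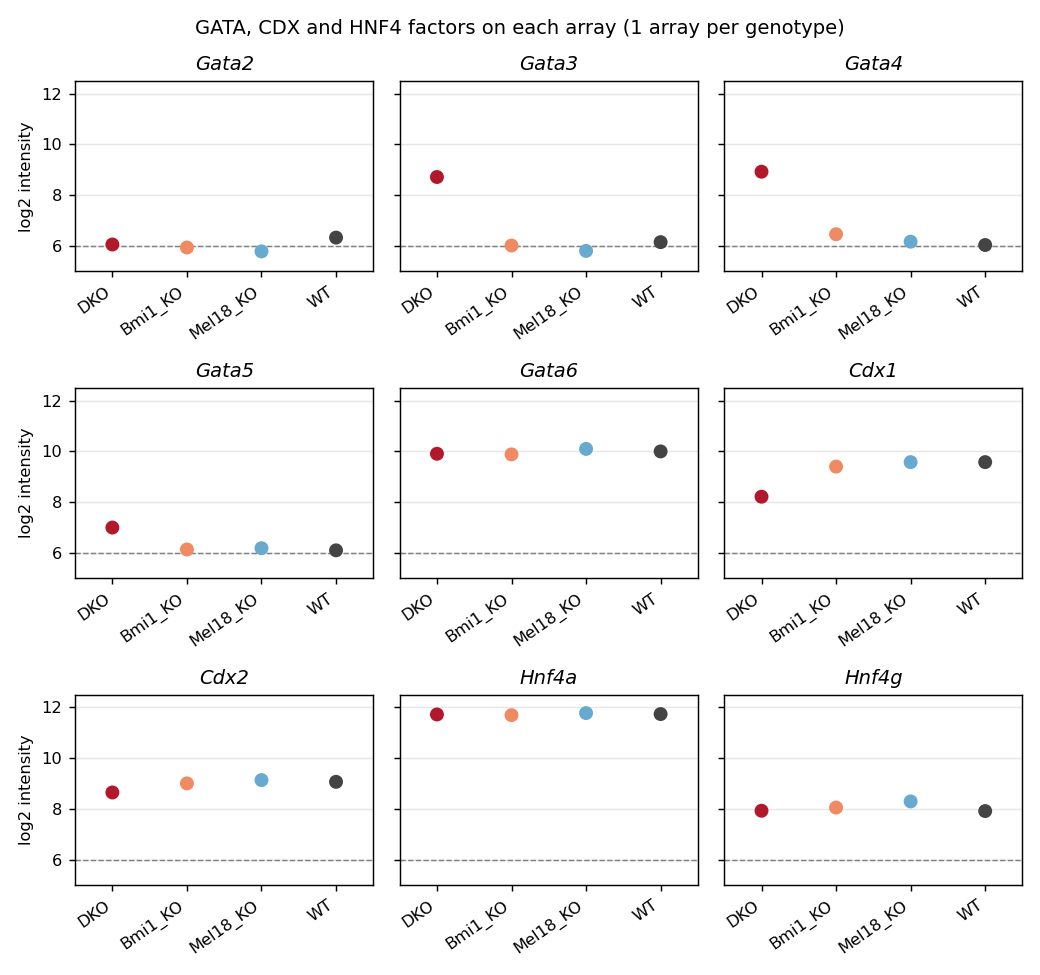
Log2 intensity (vertical axis) of the 9 factors on the 4 arrays, 1 point per array, with the floor of 6 dashed. Gata3 and Gata4 stand high on DKO at 8.72 and 8.93, Cdx1 stands low at 8.21, and Hnf4a and Gata6 are close to level across the arrays.

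Gata4, the factor of the proximal small bowel, had log2 values of 8.93 in DKO, 6.46 in Bmi1_KO, 6.17 in Mel18_KO and 6.04 in WT. The DKO array was high by itself, 2.46 above the nearest other array, while the other 3 spanned 0.42. In linear terms the intensities were 487 in DKO, against 88.3 in Bmi1_KO, 72.1 in Mel18_KO and 65.8 in WT, a 7.40-fold difference between DKO and WT (log2 2.89). That difference was rank 36 from the top among 12526 genes. Against the single deletions it was 2.61, at rank 83. Steps between neighbouring arrays below DKO were 0.29 and 0.13, within the error scale, while Bmi1_KO lay 0.42 above WT, marginally outside it. The levels near 6 lie close to the floor, so the fold is rough at its lower end. On log2 of the value plus 32, a scale that damps dim signals, the DKO difference from WT was 2.41.

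Gata3, a factor of T cells and innate lymphoid cells that is also made in squamous epithelium, read 8.72 in DKO, 6.02 in Bmi1_KO, 5.81 in Mel18_KO and 6.15 in WT. The pattern was again 1 high array, with the other 3 spanning 0.35 and their order not separable at the error scale. Intensities were 421 in DKO, 64.9 in Bmi1_KO, 56.0 in Mel18_KO and 71.2 in WT, which is 5.92-fold higher on DKO than on WT (log2 2.57, rank 70 from the top). Against the single deletions Gata3 was 6.99-fold higher (2.81, rank 54). With the value plus 32 the differences of Gata3 were 2.14 against WT and 2.30 against the single deletions.

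Gata5 and Gata2 were dim. Gata5 read 6.996 in DKO, 6.13 in Bmi1_KO, 6.18 in Mel18_KO and 6.10 in WT. The other 3 arrays lay within 0.083 of each other, and DKO was 0.81 above the nearest of them, outside the error scale but under 2-fold. At a threshold of 1.5-fold Gata5 would count among the factors higher on DKO than on WT, where 14.3% of all genes were higher and 20.2% lower (34.5% either way). Against the single deletions 32.9% of all genes passed 1.5-fold (14.0% of all genes higher), Gata5 among them. The antisense transcript Gata5os, which overlaps Gata5 in the RefSeq table, stayed below the floor at 5.83, 5.62, 5.55 and 5.51 in DKO, Bmi1_KO, Mel18_KO and WT. Gata2 read 6.06 in DKO, 5.94 in Bmi1_KO, 5.79 in Mel18_KO and 6.33 in WT. It reached the floor on 2 of the 4 arrays, and WT was the highest of them. Its differences from WT were -0.27 for DKO, -0.39 for Bmi1_KO and -0.54 for Mel18_KO, the last one outside the error scale. The WT array also carried seminal vesicle transcripts, and the part of these in the Gata2 value was not tested.

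Gata6, the GATA factor that remains along the whole intestine, was level. It read 9.90 in DKO, 9.88 in Bmi1_KO, 10.09 in Mel18_KO and 9.995 in WT. The 4 arrays spanned 0.21, within the error scale, and only 12.9% of genes had a smaller span. Among the GATA genes, then, DKO was set apart for Gata4, Gata3 and to a lesser degree Gata5, and not for Gata6 or Gata2.

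RefSeq promoter windows (GRCm38.p6, 250 bases before to 50 after the transcript start) were available for 5 of the 9 factors, namely Gata2, Gata3, Gata5, Cdx2 and Hnf4a. Polycomb repressive complexes are known to bind CpG-rich promoters of developmental genes, so the windows of Gata3, Gata5 and Cdx2 are shown with each CG dinucleotide in capitals. Gata3 lies at chr2:9878551-9878850 on the minus strand, Gata5 at chr2:180334630-180334929 on the minus strand and Cdx2 at chr5:147307200-147307499 on the minus strand.
Gata3: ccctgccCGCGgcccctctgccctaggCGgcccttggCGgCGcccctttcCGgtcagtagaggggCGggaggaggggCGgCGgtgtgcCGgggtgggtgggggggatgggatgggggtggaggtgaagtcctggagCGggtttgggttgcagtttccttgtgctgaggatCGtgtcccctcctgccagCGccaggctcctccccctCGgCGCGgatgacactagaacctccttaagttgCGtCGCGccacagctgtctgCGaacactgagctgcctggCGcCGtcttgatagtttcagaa
Gata5: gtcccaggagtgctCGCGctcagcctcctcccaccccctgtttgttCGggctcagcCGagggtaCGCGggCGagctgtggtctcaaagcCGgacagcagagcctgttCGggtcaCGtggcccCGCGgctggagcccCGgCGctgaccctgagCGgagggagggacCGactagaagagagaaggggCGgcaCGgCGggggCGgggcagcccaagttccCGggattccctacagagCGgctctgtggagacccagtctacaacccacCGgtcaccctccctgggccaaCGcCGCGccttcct
Cdx2: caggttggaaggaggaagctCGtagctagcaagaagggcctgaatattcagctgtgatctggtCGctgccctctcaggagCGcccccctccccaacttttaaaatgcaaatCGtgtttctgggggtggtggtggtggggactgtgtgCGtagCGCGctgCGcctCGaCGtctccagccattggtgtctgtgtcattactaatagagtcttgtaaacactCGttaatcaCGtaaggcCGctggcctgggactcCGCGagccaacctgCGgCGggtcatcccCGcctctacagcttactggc
Gata3 had 22 CG dinucleotides in its 300 bases, Gata5 had 26 and Cdx2 had 18, against a median of 7 over 32851 windows. The ratio of observed to expected CG was 0.658 for Gata3, 0.714 for Gata5 and 0.731 for Cdx2, where the median window had 0.384. Among all windows these ratios were only at percentiles 68.0, 72.1 and 73.4. Gata2, with 2 windows, was richer, at 32 and 29 CG dinucleotides (ratio percentiles 87.3 and 75.8). The richness was thus shared by factors that were higher on DKO (Gata3, Gata5), by Gata2, which was near the floor on every array, and by Cdx2, which was somewhat lower on DKO. Windows of Gata4, Gata6, Cdx1 and Hnf4g were not used here.

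Cdx1 was lower on the DKO array. Cdx1, a homeobox factor of the intestinal epithelium that is strongest in crypts, read 8.21 in DKO, 9.40 in Bmi1_KO, 9.57 in Mel18_KO and 9.57 in WT. DKO was 1.19 below the nearest other array, and the other 3 spanned 0.18, so their order is not separable at the error scale. Intensities were 296 in DKO, 674 in Bmi1_KO, 761 in Mel18_KO and 762 in WT, or 2.57-fold lower on DKO than on WT (log2 -1.36, rank 393 from the bottom). Against the single deletions the log2 difference was -1.27, at rank 331 from the bottom. At a threshold of 3-fold Cdx1 was no longer called, and Gata3 and Gata4 were.

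Cdx2, the master regulator of intestinal identity, was lower by a smaller amount. It read 8.65 in DKO, 9.003 in Bmi1_KO, 9.13 in Mel18_KO and 9.07 in WT. DKO was the lowest array, 0.36 under the nearest other one, which is within the error scale. The difference from WT was -0.42, marginally outside the error scale, and became -0.28 after cyclic loess scaling. Loss of Cdx2 is known to give the intestine gastric traits, and 15 gastric and foregut genes were read beside it. Of the 7 past the floor, 3 were at least 2-fold higher on DKO than on WT: the gastrokines Gkn2 (6.79 in DKO, 4.92 in WT) and Gkn1 (7.07 in DKO, 5.55 in WT) and the foregut factor Sox2 (6.24 in DKO, 5.03 in WT). These 3 passed the floor on DKO only and so had to be higher there, though not necessarily by 2-fold. The stomach peptide Tff1 differed by 0.13, and 8 of the 15 genes were below the floor on all 4 arrays. Cdx2 was still read at 8.65 on DKO, and its part in the values of the gastric genes was not tested.

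Hnf4a and Hnf4g, the nuclear receptors of the enterocyte programme, differed little between DKO and WT. Hnf4a read 11.72 in DKO, 11.69 in Bmi1_KO, 11.77 in Mel18_KO and 11.73 in WT. Its 4 arrays spanned 0.081, a span smaller than that of all but 1.19% of genes. Hnf4g read 7.93 in DKO, 8.05 in Bmi1_KO, 8.29 in Mel18_KO and 7.91 in WT, spanning 0.38, with Mel18_KO the highest array and DKO and WT 0.01 apart. The signs of the small DKO differences depended on scaling: across alternatives they ran from -0.09 to 0.19 for Hnf4a, -0.06 to 0.11 for Hnf4g and -0.17 to 0.08 for Gata6 against WT. The antisense transcript Hnf4aos stayed below the floor, at 5.38 in DKO, 4.96 in Bmi1_KO, 5.45 in Mel18_KO and 5.24 in WT.

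Hnf4a has 2 RefSeq promoter windows, and both are CG-poor, with 4 CG dinucleotides each and observed over expected ratios of 0.183 and 0.163. The first, at chr2:163506607-163506906 on the plus strand, is shown because it was the only member window with a GATA motif, which is in capitals.
Hnf4a: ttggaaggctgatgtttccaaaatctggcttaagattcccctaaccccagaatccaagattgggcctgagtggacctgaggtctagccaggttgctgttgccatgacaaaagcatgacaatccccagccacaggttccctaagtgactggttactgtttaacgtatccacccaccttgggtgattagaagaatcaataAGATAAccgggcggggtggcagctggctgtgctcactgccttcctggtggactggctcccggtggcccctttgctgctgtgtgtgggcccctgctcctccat
The motif AGATAA begins 52 bases before the start. Windows were searched on both strands. The GATA motif was AGATAA or, as the alternative, TGATAA, and 18.6% of all 32851 windows held it. The HNF4 motif was CAAAGTCCA or, in its variant form, CAAAGTTCA, in 0.861% of windows. The CDX motif was CAATAAA, in 4.60% of windows. No HNF4 or CDX motif was found in the 7 windows of the factors. Which Hnf4a start was used on each array was not analysed here.

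**Figure D2:**
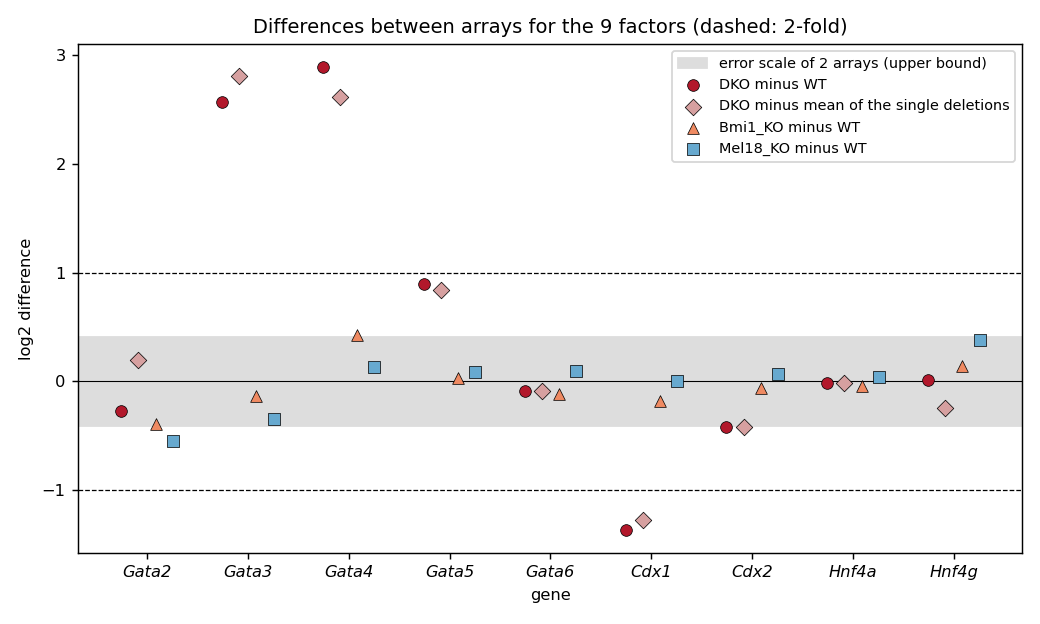
Log2 differences (vertical axis) of the 9 factors for DKO against WT, DKO against the mean of the single deletions, Bmi1_KO against WT and Mel18_KO against WT, with the error scale of 2 arrays shaded and 2-fold dashed. Gata3, Gata4 and Cdx1 pass 2-fold in both comparisons that contain DKO, and no factor passes it in a single deletion.

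Neither single deletion set any of the 9 factors 2-fold apart from WT. On Bmi1_KO 0 of 9 passed, as did 0.91% of all genes (0.551% higher), and on Mel18_KO 0 of 9 passed, next to 0.958% of all genes (0.144% higher). At 1.5-fold 0 of 9 passed on either array, where 3.55% of all genes passed on Bmi1_KO (2.02% higher) and 3.54% on Mel18_KO (2.35% lower). Both comparisons use the same WT array. On Bmi1_KO the differences ran from -0.39 for Gata2 to 0.42 for Gata4, and on Mel18_KO from -0.54 for Gata2 to 0.38 for Hnf4g. Since so few genes differ at this threshold on either array, a count of 0 among 9 is near the background.

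The layout also allows each loss to be read with and without the other gene, in pairs that share no array. For Gata4, loss of Bmi1 gave 2.76 in the absence of Mel18 (DKO minus Mel18_KO) and 0.42 in its presence (Bmi1_KO minus WT). For Gata3 these differences were 2.91 and -0.13, and for Cdx1 they were -1.36 and -0.18. Loss of Mel18 gave 2.46 for Gata4 in the absence of Bmi1 and 0.13 in its presence, 2.70 and -0.35 for Gata3, and -1.19 and -0.001 for Cdx1. The differences between the 2 backgrounds were not tested, since each genotype has 1 array. Averaged over both backgrounds in an additive limma model with 1 residual degree of freedom, 0 of 9 factors and 0% of 12526 genes passed an adjusted p of 0.05 for either loss. At an unadjusted p under 0.05, 324 genes passed for Bmi1 and 138 for Mel18, with 0 of the 9 factors among them. The average effect for Gata4 was 1.59 with loss of Bmi1 (95% interval -0.175 to 3.35, limma adjusted p = 0.849) and 1.30 with loss of Mel18 (-0.47 to 3.06, limma adjusted p = 0.952). The wide intervals come from a model in which the departure of DKO from additivity counts as error.

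**Figure D3:**
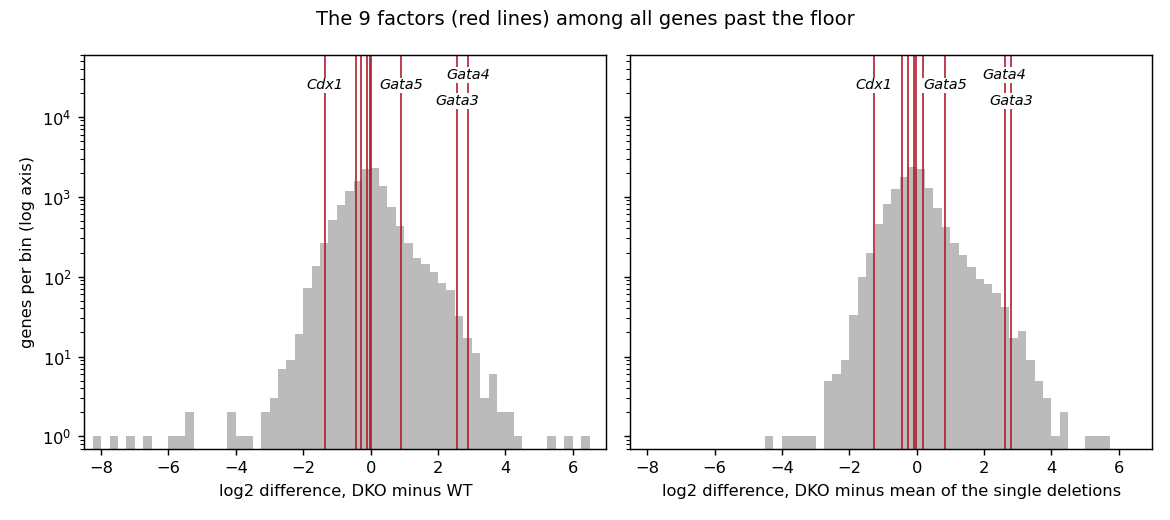
Number of genes (vertical log axis, bins of 0.25) by log2 difference for DKO against WT and for DKO against the mean of the single deletions, over 12526 genes, with the 9 factors as red lines. Gata3 and Gata4 lie in the upper tail, Gata5 lies in the upper shoulder at 0.90 and 0.84, Cdx1 lies in the lower shoulder and the other 5 factors lie nearer the middle.

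Small bowel enterocyte genes were higher, as a list, on the DKO array, on which Gata4 was high. Of 32 such genes 21 passed the floor, and 14 of these were at least 2-fold higher on DKO than on WT. None (0) was lower. Their median difference was 1.69, where that of all genes was -0.052. Of the 21 genes 2, Enpep and Apoc3, passed the floor on DKO only and so had to be higher there, though not necessarily by 2-fold. Apoa1, the chief apolipoprotein of HDL, read 11.73 in DKO, 6.40 in Bmi1_KO, 6.56 in Mel18_KO and 6.29 in WT. The peptidases Naaladl1 (4.36) and Enpep (4.18) and the intestinal alkaline phosphatase Alpi (3.50) followed. The list was not uniform: 7 genes differed by less than 2-fold, between -0.38 and 0.78, and 11 remained below the floor on all 4 arrays, among them lactase (Lct, 5.20 in DKO and 5.30 in WT) and sucrase-isomaltase (Sis, 4.29 in DKO and 3.45 in WT), picked here after their values were seen. Against the single deletions 13 of 21 were higher and 0 lower (median 1.59). Many genes of the list are known targets of GATA4 and HNF4 factors. The part of these factors in the values was not tested.

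The ileal bile acid genes differed in both directions. Slc10a2, the ileal bile acid transporter, read 9.82 in DKO, 6.93 in Bmi1_KO, 7.69 in Mel18_KO and 6.76 in WT, a difference of 3.05 between DKO and WT. The ileal bile acid-binding protein Fabp6 was lowest on DKO, at 4.77, against 6.80 in Bmi1_KO, 7.35 in Mel18_KO and 5.93 in WT. The basolateral transporter subunit Slc51b differed by 0.50, and the other 2 of the 5 genes were below the floor. Gata4, a marker of jejunum, and Slc10a2, a gene of the ileum, were thus both high on the same array.

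Colon genes were lower on DKO or under 2-fold apart. Of 23 genes of the colon list 8 were 2-fold or more below WT on DKO and 0 higher (median -0.56). The largest differences were in the cytochrome Cyp2c55 (-3.57), the sugar-phosphate exchanger Slc37a2 (-2.80), the magnesium channel Trpm6 (-2.33) and the homeobox gene of the hind end Hoxd13 (-1.72). The remaining 15 lay between -0.93 and 0.74. Genes expressed along the whole intestine were level, with 1 of 23 higher (Phgr1, 1.06), 1 lower (the chloride channel Cftr, -1.01) and a median of 0.17. The keratin Krt20 (0.52) and the ferroxidase Heph (0.46) were the next furthest. Against the single deletions the colon list had 8 lower and 1 higher (median -0.50) and the general list 1 lower and 0 higher (median 0.04).

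Partners and other regional factors differed mainly in 3 genes. Of 25 past the floor 3 were at least 2-fold higher on DKO than on WT and 0 lower (median 0.18), where 7.33% of all genes were higher and 8.19% lower. Creb3l3, a factor of lipid metabolism in liver and small bowel, differed by 2.27, the GATA-motif repressor Trps1 by 1.93 and Prdm1, known in mouse as a factor of the fetal intestine, by 1.56. The foregut and pancreatic factor Pdx1 followed at 0.89, and the remaining genes lay between -0.88 and that value. Gata1 and Cdx4, the remaining family members on this list, stayed below the floor at 5.01 in DKO and 5.09 in WT, and at 3.40 in DKO and 3.48 in WT.

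Promoter windows of the small bowel list held the searched motifs more often than windows at large, as a description. An HNF4 motif stood in 5 of the 30 genes with a window (16.7%), against 0.995% of all genes in the table. A GATA motif stood in 11 of 30 (36.7%), against 21.0%, and a CDX motif in 4 of 30 (13.3%), against 5.33%. Of the 5 with an HNF4 motif Alpi (3.50) and Apoa4 (2.10) were 2-fold higher on DKO than on WT, Rbp2 differed by -0.29, and Cyp3a11 and Treh were below the floor on all arrays. Of the 11 with a GATA motif, Abcg5, Abcg8, Apoa1, Mep1a and Npc1l1 were at least 2-fold higher on DKO than on WT. Dpp4, Mgam and Rbp2 were under 2-fold apart, Lct and Slc2a2 were below the floor, and Apoc2 was not among the genes read. Over the whole list, with or without a motif, 14 of the 21 genes past the floor were at least 2-fold higher on DKO than on WT. Naaladl1 (4.36) and Enpep (4.18) were among these and were not found with any of the motifs. The part of the motifs in the values was not tested. The windows of Apoa1 (chr9:46228380-46228679, plus strand) and Alpi (chr1:87101557-87101856, minus strand) are shown because they hold a motif and are among the 4 genes of the list furthest apart between DKO and WT. Capitals mark the GATA motif of Apoa1, which is on the opposite strand, and the HNF4 motif of Alpi.
Apoa1: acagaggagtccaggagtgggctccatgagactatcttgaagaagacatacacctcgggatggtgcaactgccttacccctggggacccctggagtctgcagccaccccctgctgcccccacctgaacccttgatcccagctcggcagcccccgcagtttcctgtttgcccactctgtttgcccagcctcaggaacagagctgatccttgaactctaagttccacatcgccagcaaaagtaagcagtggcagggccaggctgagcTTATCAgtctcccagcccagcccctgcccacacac
Alpi: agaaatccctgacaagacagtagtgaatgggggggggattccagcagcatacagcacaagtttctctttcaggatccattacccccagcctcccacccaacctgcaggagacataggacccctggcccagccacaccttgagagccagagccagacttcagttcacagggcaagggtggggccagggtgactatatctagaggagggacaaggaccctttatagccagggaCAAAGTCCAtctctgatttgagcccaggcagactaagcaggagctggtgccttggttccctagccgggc
The Alpi motif begins 19 bases before the start and that of Apoa1 lies just after it. For the colon list 0 of 19 genes had an HNF4 motif, 5 had a GATA motif (26.3%) and 3 a CDX motif (15.8%). In the general intestinal list 1 of 16 genes had an HNF4 motif (6.25%), 4 a GATA motif (25.0%) and 0 a CDX motif.

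**Figure D4:**
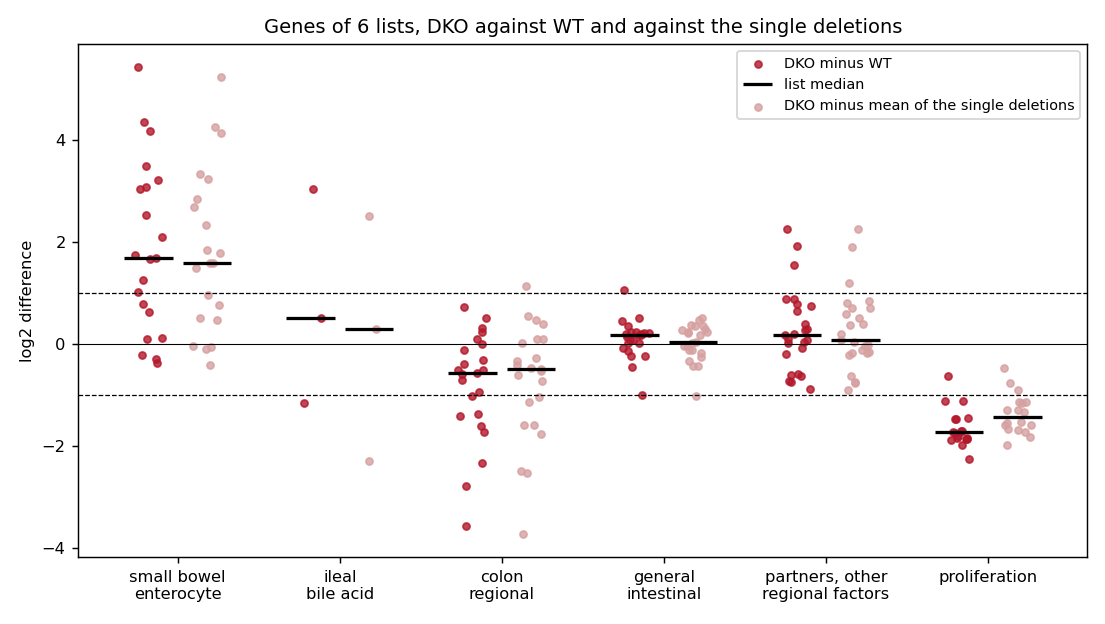
Log2 difference (vertical axis) of each gene past the floor in 6 lists, for DKO against WT and DKO against the mean of the single deletions, with bars at list medians and 2-fold dashed. Small bowel genes lie high (medians 1.69 and 1.59), colon genes low (-0.56 and -0.50) and proliferation genes lowest (-1.74 and -1.44).

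Cells other than enterocytes can carry some of these factors. T cell and innate lymphoid genes, the lineages known for Gata3, had a summed intensity of 1693 in DKO, 1141 in Bmi1_KO, 1066 in Mel18_KO and 1017 in WT over 19 genes. Of the 10 past the floor 4 were at least 2-fold higher on DKO than on WT and 0 lower (median 0.52): Il7r (2.26), Cd3g (1.28), Cd7 (1.10) and Icos (1.03). The T cell receptor subunit Cd3e differed by 0.63, and 9 of the 19 genes were below the floor on all arrays, among them the type 2 cytokines Il4, Il5 and Il13, picked after their values were seen. Gata3 itself differed by 2.57 between the same arrays. Mononuclear phagocyte genes summed to 14892 in DKO, 5157 in Bmi1_KO, 2725 in Mel18_KO and 4043 in WT, with 11 of 12 at least 2-fold higher on DKO than on WT (median 2.23), led by Clec4n (3.51), Ms4a6c (2.48), Cybb (2.45) and Itgam (2.30). Adgre1, 1 of the 11, passed the floor on DKO only and so had to be higher there, though not necessarily by 2-fold. Neutrophil genes summed to 26746, 14684, 2240 and 6038 in that order of arrays, with 14 of 15 higher (median 2.24), led by Hcar2 (3.00), Ngp (2.93), Clec4d (2.74) and Il1r2 (2.67). The part of these cells in the Gata3 and Gata4 values was not tested.

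Lists of the other known sources were read the same way. Squamous and urothelial genes, which accompany Gata3 in surface epithelia, summed to 2603 in DKO, 3180 in Bmi1_KO, 2744 in Mel18_KO and 2995 in WT. Of 8 past the floor 4 were lower on DKO than on WT, among them the basal keratins Krt5 (-2.95), Krt14 (-1.98) and Krt6a (-1.36), and 1 was higher, the desmosomal cadherin Dsg3 (1.77). Against the single deletions 2 were lower and 1 higher (median -0.19). On Mel18_KO 3 were lower than on WT and 0 higher, with Krt5 at 6.36 in Mel18_KO and 8.76 in WT, so lower values were not particular to DKO. The part of these cells in the Gata3 value was not tested. Mast cell and basophil genes, a lineage known for Gata2, summed to 3030 in DKO, 2670 in Bmi1_KO, 1796 in Mel18_KO and 1659 in WT. Among them the histidine decarboxylase Hdc was higher (2.27), the proteases Cma1 (-1.26) and Mcpt1 (-0.60) were lower in value, and the receptor Kit differed by 0.40, while 9 of 15 were below the floor on all arrays. Without Hdc, a choice made after seeing the data, the sums were 1262 in DKO, 2078 in Bmi1_KO, 1644 in Mel18_KO and 1292 in WT, so DKO was then the lowest array. Endothelial genes, also known for Gata2, had 6 of 17 higher and 0 lower (median 0.95), led by Cd93 (2.14), Pecam1 (1.74), Emcn (1.20) and Flt1 (1.10), with sums of 2594, 1522, 1220 and 1310 in DKO, Bmi1_KO, Mel18_KO and WT. Of those 17 genes 5 passed the floor on DKO only, Emcn among them. Fibroblast and smooth muscle genes had 3 of 14 higher (median 0.76; Pdpn 1.82, Vim 1.72, Dcn 1.68) and then Col1a1 (0.86), and summed to 8788 in DKO, 5217 in Bmi1_KO, 2427 in Mel18_KO and 3592 in WT.

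Seminal vesicle genes stood out on the WT array. They summed to 997 in DKO, 776 in Bmi1_KO and 568 in Mel18_KO, against 18522 in WT, and all 12 past the floor were 2-fold or more below WT on DKO, led by Svs4 (-8.00), Svs2 (-7.51), Svs5 (-7.11) and Pate14 (-6.64). Of these 12 genes 9 passed the floor on WT only, Svs4 and Pate14 among them. Those 9 had to be lower on DKO, though not necessarily by 2-fold. Without the WT array, Gata4 (2.61), Gata3 (2.81), Gata5 (0.84) and Cdx1 (-1.27) had the same sign, while Gata2 was 0.19 against the single deletions and -0.27 against WT. Mesothelial and pancreatic genes, listed because Gata4 and Gata6 are known in both tissues, gave 1 of 4 higher (Msln, 1.92) and 1 lower (Cela1, -1.10), then Cela2a (0.19) and Wt1 (0.02), and 6 of 10 were below the floor.

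**Figure D5:**
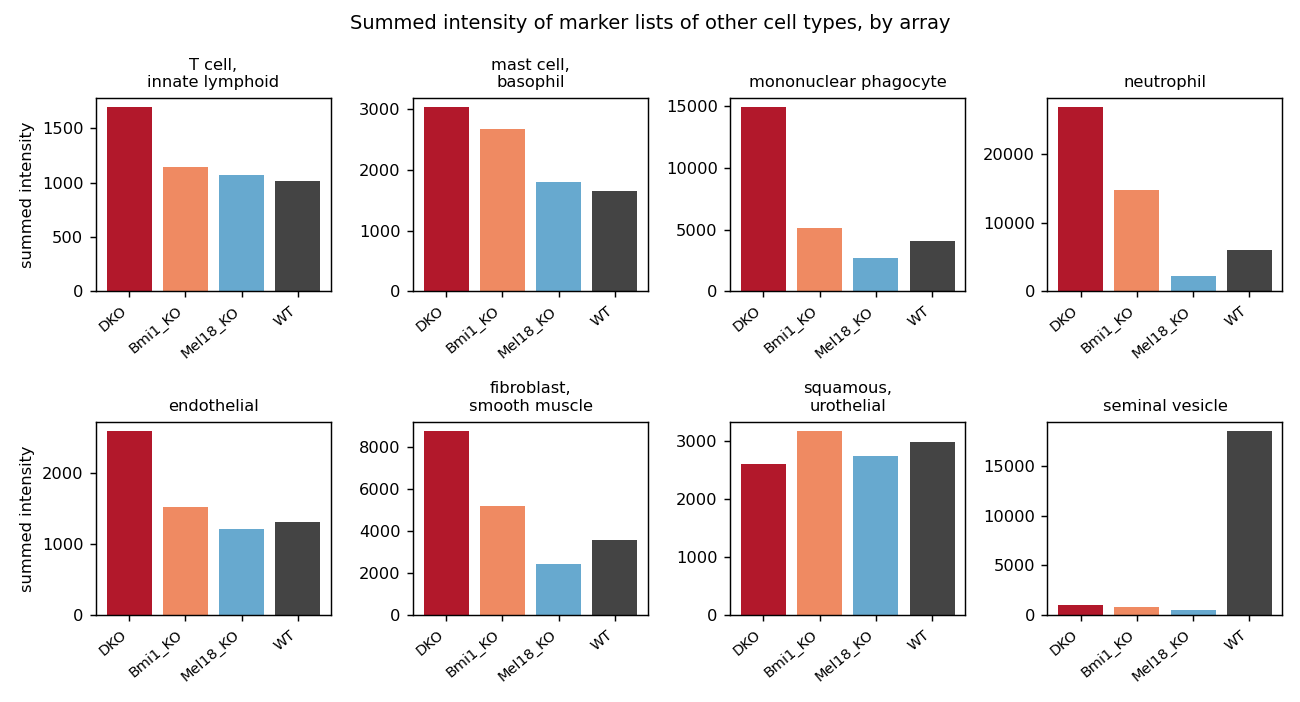
Summed linear intensity (vertical axis, from 0, own scale per panel) of 8 marker lists on the 4 arrays, 1 bar per array. T cell and innate lymphoid, mast cell (through Hdc), phagocyte, neutrophil, endothelial and fibroblast sums are highest on DKO. Squamous sums are highest on Bmi1_KO and seminal vesicle sums stand out on WT at 18522.

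Proliferation genes were low on the array where Cdx1 was low. Of 18 past the floor 17 were 2-fold or more below WT on DKO and 0 higher (median -1.74), with Racgap1 (-2.27), Plk1 (-1.99), Ccna2 (-1.88) and Aurkb (-1.87) furthest. Cdx1 is known to be strongest in the proliferating crypt, and its difference of -1.36 was smaller than the median of that list. The part of proliferation in the Cdx1 value was not tested.

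The genes whose 4-array patterns were most like the 3 called factors were found by the smallest distance between patterns centred on their own mean. They are named as a description over 4 arrays. For Cdx1 these were Timm50, Nup205, Mrpl37, Iars and Drg2, at distances of 0.013 to 0.046. Timm50, a subunit of the mitochondrial import channel, read 7.92 in DKO, 9.09 in Bmi1_KO, 9.29 in Mel18_KO and 9.27 in WT. For Gata3 they were Gbp8, Adgre1, Ccr2, Cxcl9 and Clec7a, at 0.17 to 0.30. Adgre1, a macrophage surface receptor of the adhesion family, read 8.22 in DKO, 5.62 in Bmi1_KO, 5.58 in Mel18_KO and 5.99 in WT. For Gata4 they were Stap1, Cd69, Il33, Gpr65 and Slc28a2, at 0.25 to 0.31. Stap1, the closest, was below the floor except on DKO, at 7.99 in DKO, 5.60 in Bmi1_KO, 5.11 in Mel18_KO and 5.33 in WT. The cytokine Il33, at rank 3, read 10.09 in DKO, 7.79 in Bmi1_KO, 7.20 in Mel18_KO and 7.43 in WT. The distances were not scaled to the size of a difference, and genes were more crowded around Cdx1. The 0.25-wide bin of DKO minus WT that holds Cdx1 had 261 genes, that of Gata3 had 32 and that of Gata4 had 17. The distances are therefore not comparable between the factors.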

How the data were processed

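Colon epithelial RNA from 4 groups of mice (DKO, Bmi1_KO, Mel18_KO and WT, 1 sample each) was measured on Affymetrix Mouse Gene 1.0 ST arrays. Per the submitters' processing notes the authors used Affymetrix Expression Console and RMA, which corrects background, sets all arrays to one distribution by quantiles and summarises probes, so a shift shared by most genes would be removed. The deposited values are linear intensities, and log2 was taken here. The sources used here give no versions. Of 35556 probe sets, 21789 carried 1 gene symbol, 1621 had several and 12146 had none listed. For the 999 genes with several sets the brightest was used. Genes with a log2 of at least 6 on the highest array were analysed, and 2-fold was the threshold. The number of arrays limits the precision.

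Average effects were fitted with limma 3.58.1 in R 4.3.3 (lmFit, eBayes, Benjamini-Hochberg). The fit was checked on simulated data with additive effects and the same noise for every gene. That check does not cover departures from additivity, which were 3.05 for Gata3 and 2.33 for Gata4. Alternatives were no floor, a floor of 8, cyclic loess, median centring over all probe sets, a 3-fold and a 1.5-fold threshold, adding 32 before log2, averaging probe sets and a trend in eBayes. For each list up to 4 genes with the largest difference between DKO and WT were named, and for each factor at least 2-fold apart the 5 most alike genes, leaving out antigen receptor segments, chemosensory receptors, small RNAs and gene models without a name. Members and lists were chosen with earlier results of these data known. Promoter sequences are from RefSeq, GRCm38.p6. Python 3.11.15, numpy 2.4.6 and pandas 2.3.3 were used.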

Additional observations from a re-analysis of the deposited data

How the results depend on the processing

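The calls of Gata3, Gata4 and Cdx1 against WT and against the single deletions held after cyclic loess and median centring and with the value plus 32. They were also the same without a floor, with a floor of 8 (7 of the 9 factors tested) and with the mean of probe sets. Those last settings could not alter a difference, since each factor has 1 probe set and a floor only removes genes. The number of factors called went to 4 at 1.5-fold, with Gata5, and to 2 at 3-fold, without Cdx1. The 144 recomputed differences of single factors include those with the mean of probe sets, which could not change. Of the 144, 3 moved by more than the error scale and 0 of the called ones reversed. Those 3 were with the value plus 32: Gata3 (2.14) and Gata4 (2.41) against WT and Gata3 (2.30) against the single deletions. Median centring shifted the median of all genes to -0.13 between DKO and WT, from which Cdx1 at -1.44 and Gata4 at 2.81 still stood apart. The split of genes 2-fold higher and lower than the single deletions was 918 and 816. Cyclic loess gave 1046 and 555, and median centring gave 844 and 967. Against WT it was 918 and 1026, where cyclic loess gave 1020 and 794 and median centring gave 825 and 1235, so which side holds more genes depends on the scaling in both comparisons. The split against WT for Bmi1_KO was 69 and 45, and 44 and 52 after median centring. In the limma model 0 factors passed under any alternative. With a floor of 8, Gata4 had an unadjusted p of 0.0339 with loss of Bmi1 (limma adjusted p = 0.924). Levels near 6 limit the folds of Gata2 to Gata5. No paired analysis was possible because each genotype has 1 array, and for the same reason no replicate could be left out.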
